A study of Homo sapiens with 6 samples.

Results

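Chromosome 19 carries 246 protein-coding genes whose symbol is ZNF followed by a number, with or without letters after it. They were taken by that symbol rule from RefSeq gene positions on GRCh38.p14, and are 246 of the 1451 protein-coding genes of the chromosome and of the 19974 on chromosomes 1 to 22 and X. At each gene, the peaks of 4 deposited lists were read over the gene span plus 5 kb on either side. The other 1205 protein-coding genes of chromosome 19 served as the comparison.

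Most ZNF genes of this chromosome encode C2H2 zinc finger proteins, in which repeated zinc-binding loops contact DNA. Many also carry a KRAB domain, which recruits the corepressor TRIM28 and, through it, the histone methyltransferase SETDB1. The genes lie in tandem clusters that arose by duplication, and their finger-coding last exons are known in many cell types for carrying H3K9me3, a mark of silent chromatin.

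The cells were IMR90, an established line of human fibroblasts from embryonic lung, profiled by ChIPmentation, in which antibody-bound chromatin is cut and tagged by a transposase. SON, a scaffold protein of nuclear speckles, was mapped in untreated control cells and after 3 and 6 days of a treatment that the labels call ICM and do not expand. HMGB2, a chromatin protein with HMG boxes that bind and bend DNA, was mapped in untreated cells. SON samples were fixed with formaldehyde alone and HMGB2 samples with EGS and then formaldehyde, so target and fixation cannot be told apart. All 4 groups are the same cell line with no other allele or agent named in the labels, and peak lists give no expression with which to check the cell type. Not analysed here were 2 further samples, an input for HMGB2 and one whose title adds DSG. Each group has 1 list, so no difference between conditions has a replicate check, and the read depth is unknown.

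The untreated, 3-day and 6-day SON lists held 22362, 11158 and 5583 peaks and the HMGB2 list 6013, of which 1044, 681, 358 and 461 were on chromosome 19. The strength of a peak is the authors' −log10 p, and its percentile is its place in its own list, where 100 would be the strongest. Intervals are 95% exact binomial intervals for shares and 95% Newcombe intervals for differences. They cover counting error only, and since neighbouring genes can share a peak, genes are not independent of each other.

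The sequences before a listed start of 5 members show the range of promoters in the family. The first 3 belong to ZNF genes with a peak of all 4 lists over the printed stretch, and the last 2 to long ZNF genes with no peak in any list. Each run is RefSeq sequence of GRCh38.p14, 5′ to 3′ on the plus strand, on which all 5 genes lie. It ends at the base before the outermost listed start, and bases inside another gene were left out. For ZNF730 that start lies inside the gene span, so its stretch is within the gene and not upstream of it. Capitals mark matches, on either strand, to one of 6 motif cores that were searched, whose letters are given with their counts further on.
ZNF576: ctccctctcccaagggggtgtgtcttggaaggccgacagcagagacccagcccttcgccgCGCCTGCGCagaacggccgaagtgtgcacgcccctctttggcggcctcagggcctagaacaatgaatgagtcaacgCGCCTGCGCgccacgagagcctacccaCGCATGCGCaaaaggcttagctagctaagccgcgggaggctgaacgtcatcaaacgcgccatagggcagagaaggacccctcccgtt
ZNF526: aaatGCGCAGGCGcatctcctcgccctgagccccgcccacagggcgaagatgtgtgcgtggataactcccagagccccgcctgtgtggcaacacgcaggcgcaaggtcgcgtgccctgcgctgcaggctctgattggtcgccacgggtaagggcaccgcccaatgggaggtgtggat
ZNF548: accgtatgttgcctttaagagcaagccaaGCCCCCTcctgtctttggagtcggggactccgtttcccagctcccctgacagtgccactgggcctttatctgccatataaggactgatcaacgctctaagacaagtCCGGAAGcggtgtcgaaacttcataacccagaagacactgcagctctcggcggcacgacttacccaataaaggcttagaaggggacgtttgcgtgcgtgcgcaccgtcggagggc
ZNF536: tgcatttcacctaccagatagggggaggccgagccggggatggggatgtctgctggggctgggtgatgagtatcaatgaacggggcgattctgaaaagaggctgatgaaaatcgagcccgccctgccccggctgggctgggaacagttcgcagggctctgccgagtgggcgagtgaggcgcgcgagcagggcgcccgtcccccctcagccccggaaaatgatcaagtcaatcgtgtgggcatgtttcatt
ZNF730: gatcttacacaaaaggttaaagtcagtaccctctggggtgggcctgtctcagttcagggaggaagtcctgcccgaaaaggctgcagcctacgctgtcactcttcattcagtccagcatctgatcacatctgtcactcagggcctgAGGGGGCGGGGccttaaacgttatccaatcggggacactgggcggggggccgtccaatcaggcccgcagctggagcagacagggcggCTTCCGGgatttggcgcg
The ZNF576 stretch, chr19:43596142-43596391, holds 22 CpG and 3 matches to the NRF1 core. The ZNF526 stretch, chr19:42220135-42220311, holds 15 CpG and 1 NRF1 match. The ZNF548 stretch, chr19:57389604-57389853, holds 16 CpG, 1 ETS match and 1 match to the second part of the CTCF core. The ZNF536 stretch without a peak, chr19:30225342-30225591, holds 17 CpG and none of the motifs, and the ZNF730 stretch, chr19:23116775-23117024, holds 12 CpG and matches to the ETS, SP and second CTCF cores, of which the SP and CTCF matches overlap. CpG number alone did not separate the stretches with a peak from those without in these 5 examples.

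SON peaks lay at most ZNF genes of chromosome 19 in untreated cells. A peak was found at 198 of 246 members (80.5%, interval 75 to 85.2%), against 60.1% of the other chromosome 19 genes and 57.1% of all protein-coding genes. The difference from the other chromosome 19 genes was 20.4 percentage points (14.4 to 25.7). In untreated cells the ZNF genes were thus above both comparison sets.

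At 3 days of ICM, 139 members (56.5%, 50.1 to 62.8%) had a SON peak, against 49.5% of the other chromosome 19 genes and 41.0% of all protein-coding genes. The difference from the other chromosome 19 genes was 7.04 points (0.188 to 13.7). At 6 days the order was the other way round: 59 members (24.0%, 18.8 to 29.8%) had a peak, against 33.5% of the other chromosome 19 genes and 21.5% of all genes, a difference of -9.54 points (-15.2 to -3.27). The SON lists become shorter over the same days, so fewer genes of every kind had a peak in the later lists, and how far the length of the lists sets these shares is given with peak strength.

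HMGB2 peaks were scarce at the ZNF genes. They were found at 27 members (11%, 7.36 to 15.6%), against 30.5% of the other chromosome 19 genes and 23.3% of all protein-coding genes. The difference was -19.6 points (-23.8 to -14.4).

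The differences in untreated cells were also seen against neighbouring genes. Of the 204 other genes within 100 kb of a member, 62.7% had an untreated SON peak and 23.5% an HMGB2 peak, so that members differed from them by 17.7 points (9.41 to 25.9) and -12.6 points (-19.7 to -5.59). For SON at 3 days and 6 days the intervals against these near genes, -1.76 to 16.6 and -16.2 to 0.409 points, included 0. The 264 ZNF genes of the other chromosomes had shares of 75.8%, 54.5% and 20.1% in the 3 SON lists, and the intervals of the differences from the chromosome 19 members all included 0. For HMGB2 their share was 17.8%, from which the members of chromosome 19 differed by -6.83 points (-12.9 to -0.695). Thus the SON shares were not resolved from those of ZNF genes elsewhere, while the HMGB2 share was lower.

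**Figure D1:**
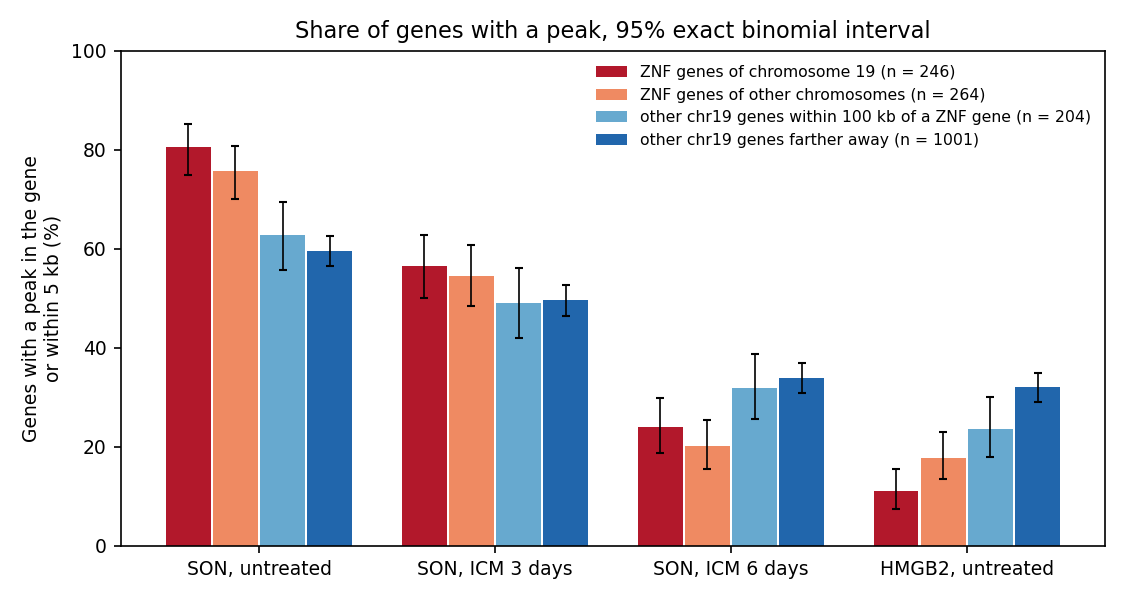
Share of genes (%, vertical axis) with a peak in the gene span or within 5 kb, for each of the 4 lists (horizontal axis) and 4 sets of genes (colours), with 95% exact binomial intervals as bars. The ZNF genes of chromosome 19 stand at 80.5% for untreated SON and at 11% for HMGB2, above and below the other genes of the chromosome.

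Gene length moves with membership, since members had a median span of 23.2 kb and the other chromosome 19 genes 12.8 kb. Within 4 classes of length, the untreated SON share was higher in members in every class. It was 75% against 48.1% up to 7.48 kb, 87.2% against 61.1% up to 14.3 kb, 78.9% against 62.5% up to 28.1 kb and 79.4% against 72.2% above. The 12 members of the shortest class ran the other way for SON at 6 days and for HMGB2, with 6 of 12 in both lists against 24.8% and 29.9% of other genes. In the longest class, 17.5% of members against 42.5% of others had a 6-day SON peak, and 5.15% against 35.3% an HMGB2 peak. For SON at 6 days and for HMGB2, members were thus above other genes in the shortest class and furthest below them in the longest.

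The peaks sat at the starts of ZNF genes. Within 1 kb of either end of the span, 161 members (65.4%) had an untreated SON peak, against 44.8% of other chromosome 19 genes and 39.8% of all protein-coding genes. At 3 days the same count was 105 (42.7%, against 37.4% and 28.0%), at 6 days 38 (15.4%, against 24.4% and 11.8%), and for HMGB2 18 (7.32%, against 21.5% and 15.1%). The gene ends thus gave the same signs as the wider window, but at 3 days the difference from other chromosome 19 genes, 5.26 points (-1.37 to 12.1), had an interval that included 0.

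The gene body away from both ends held few peaks. In untreated cells, 39 members (15.9%) had a SON peak there, against 15.4% of other chromosome 19 genes and 22.6% of all genes. At 3 days it was 28 members (11.4%, against 8.80% and 12.9%), at 6 days 13 (5.28%, against 4.32% and 7.95%), and for HMGB2 2 (0.813%, against 6.80% and 7.15%). For the SON lists these shares were close to those of other genes of the chromosome, but this rule counts listed starts inside the span as body. With such starts set apart, 2.67% of pairs of an untreated peak and a member with known strand lay in the body. At other chromosome 19 genes it was 17.2%. The shares were 2.82% against 10.9% at 3 days and 5.17% against 7.09% at 6 days.

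Strand and listed starts were available for 216 of the 246 members. Among the 225 pairs of an untreated SON peak and such a member, 184 (81.8%, 76.1 to 86.6%) lay within 1 kb of a listed start, 3 at the other end, 6 in the body and 32 in the 5 kb flanks. Of the pairs at other chromosome 19 genes, 50.4% lay at a start, 8.44% at the other end and 17.2% in the body. Few untreated SON peaks thus lay within 1 kb of the end opposite the start. With a window of 2 kb it was 12 of the 225 pairs (5.33%), against 12.8% at other genes. The finger-coding part of the last exon was not located, so peaks over it were not counted. At 3 days 117 of 142 pairs (82.4%, 75.1 to 88.3%) lay at a start, against 57.2% at other genes, and 3 at the other end. At 6 days 43 of 58 (74.1%, 61.0 to 84.7%) lay at a start, against 62.3%, and 0 at the other end. Of the 26 HMGB2 pairs, 19 (73.1%, 52.2 to 88.4%) lay at a start, against 43.9%, and 1 at the other end, the peak of ZNF628. The share at starts was higher at members in each list, but at 6 days the share of other genes lay inside the members' interval. Untreated peaks only away from both ends of the span, in the body or the flanks, were found at 37 members. Among them were ZNF444, ZNF225, ZNF565, ZNF541 and ZNF331. In 4 of these 5 the peaks lay at a listed start inside the gene, and at ZNF541 in the flank. The untreated share fell from 80.5% in the window to 65.4% at an end for members. For other chromosome 19 genes it fell from 60.1% to 44.8%, so such genes were about as frequent in both sets.

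Flank peaks often lay at a neighbour, at members and at other genes. Of the untreated SON flank peaks at members, 30 of 40 lay within 1 kb of an end of another gene, as did 17 of 21 at 3 days, 10 of 13 at 6 days and 5 of 7 for HMGB2. At other chromosome 19 genes the counts were 171 of 279, 131 of 189, 79 of 109 and 112 of 196. The widest case inside the window was ZNF541, whose only untreated peak lay 4.96 kb from its span, at an end of NAPA. It had 57.2 in untreated cells and 41.1 at 3 days. The nearest 6-day SON and HMGB2 peaks lay 5.02 kb and 5.13 kb from ZNF541. They fell just outside the window, so ZNF541 counts as having no peak in those 2 lists. The nearest untreated peak just outside the window was 5.88 kb from ZNF580. In all, 211 distinct untreated peaks stood behind the 198 members, of which 41 were in the window of more than 1 member and 31 also in the window of a gene that is no member.

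**Figure D2:**
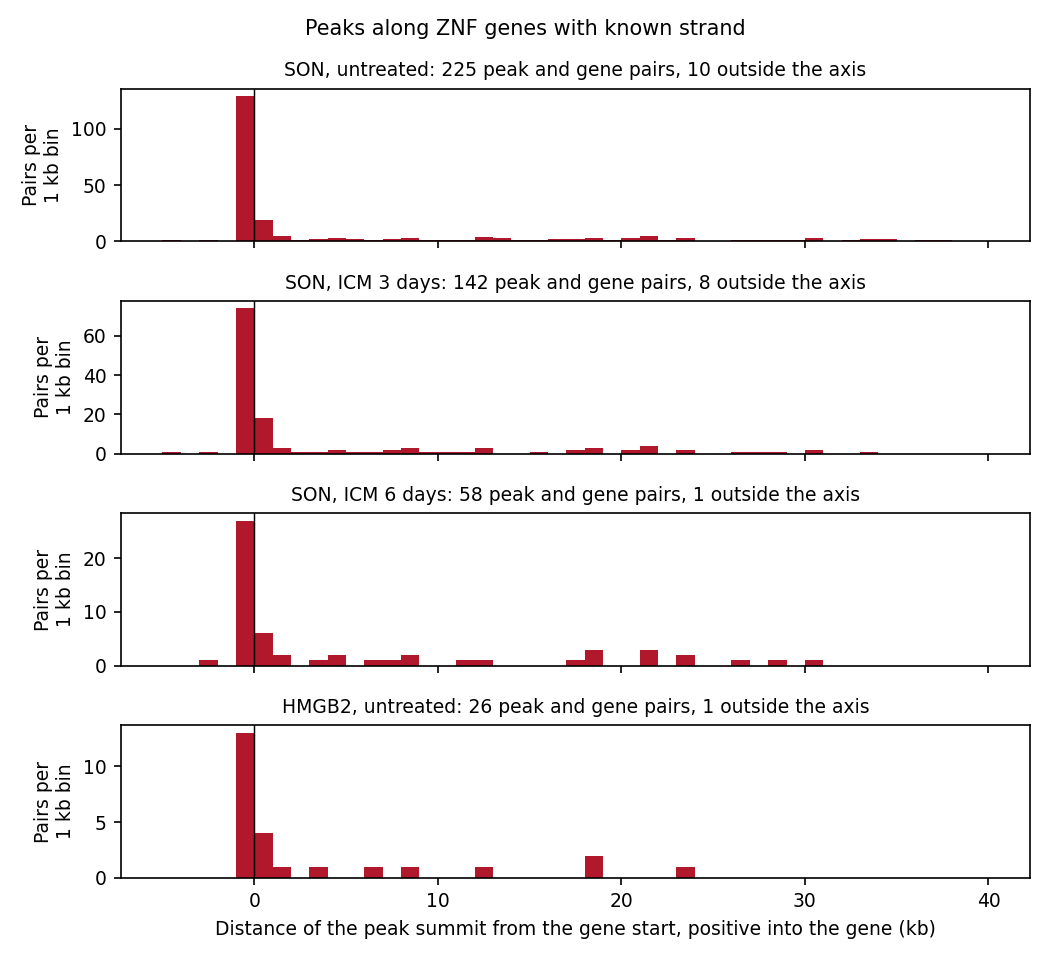
Number of pairs of a peak and a ZNF gene per 1 kb bin (vertical axis, scaled separately in each panel) against the distance of the peak summit from the outermost gene start in kb (horizontal axis, positive into the gene), for the members with known strand. In each of the 4 lists the tallest bin is next to the start, and the 26 HMGB2 pairs are the fewest.

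The untreated SON peaks at ZNF genes were of middling strength. The strongest untreated peak per member had a −log10 p from 3.76 to 203, with a median of 14.3, at the 70.8th percentile of the list. At other chromosome 19 genes with a peak the median was 22.1, at the 86.8th percentile. The same gap was seen at 3 days (median 11 and percentile 64.8, against 18 and 85.3), at 6 days (9.03 and 56.8, against 11.7 and 79.5) and for HMGB2 (8.52 and 35.9, against 11.4 and 68.5). In each list the members with a peak had the lower median of the best peak per gene. Taken peak by peak, untreated peaks at members and other chromosome 19 peaks had nearly equal median percentiles, 65.5 and 66.1. These percentiles were 62.6 against 72.6 at 3 days, 52.9 against 73.8 at 6 days and 42.6 against 55.4 for HMGB2. The best peak is a maximum, which can rise with the number of peaks at a gene, and the part of this was not tested.

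The strongest 10% of each list held the best peak of 51 of 198 members (25.8%) in untreated cells, 28 of 139 (20.1%) at 3 days, 10 of 59 (16.9%) at 6 days and 2 of 27 (7.41%) for HMGB2. Among other chromosome 19 genes with a peak these shares were 44.6%, 37.8%, 36.1% and 21.2%. In the untreated list the −log10 p was identical in both replicate columns for 160 of the 211 peaks at members (75.8%), against 68.1% of other chromosome 19 peaks. At 3 and 6 days it was identical for 24.3% and 3.77%. For most untreated peaks at members the replicate columns thus show no spread, and whether these replicates are independent is not known. The untreated IDR values and the length of the untreated list rest on the same columns.

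The sign of the untreated difference depended on how many peaks were kept. Among the strongest 500 untreated SON peaks, the difference between members and other chromosome 19 genes was -4.61 points (-7.63 to -0.551), and among the strongest 5000 it was -1.56 points (-7.87 to 5.15). With 10000 peaks it was 7.90 points (1.04 to 14.6), and with 20000 peaks 17.7 points (11.4 to 23.3). The excess of members in the untreated list was thus not seen among its strongest 5000 peaks and grew as more peaks were kept. It was 10.9 points (4.11 to 17.5) in the stronger 50% of the list. At an IDR of at most 0.05 it was 14.8 points (8.07 to 21.2).

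When each list was reduced to its 5583 strongest peaks, the length of the shortest list, the share of members with a SON peak was 37.0% in the untreated list, 36.2% in the 3-day and 24.0% in the 6-day list, and 10.6% for HMGB2. Against other chromosome 19 genes the differences were then -0.767, -5.23, -9.54 and -19.1 points. Both the 6-day SON and the HMGB2 list stayed below the other genes at each number of peaks tried.

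**Figure D3:**
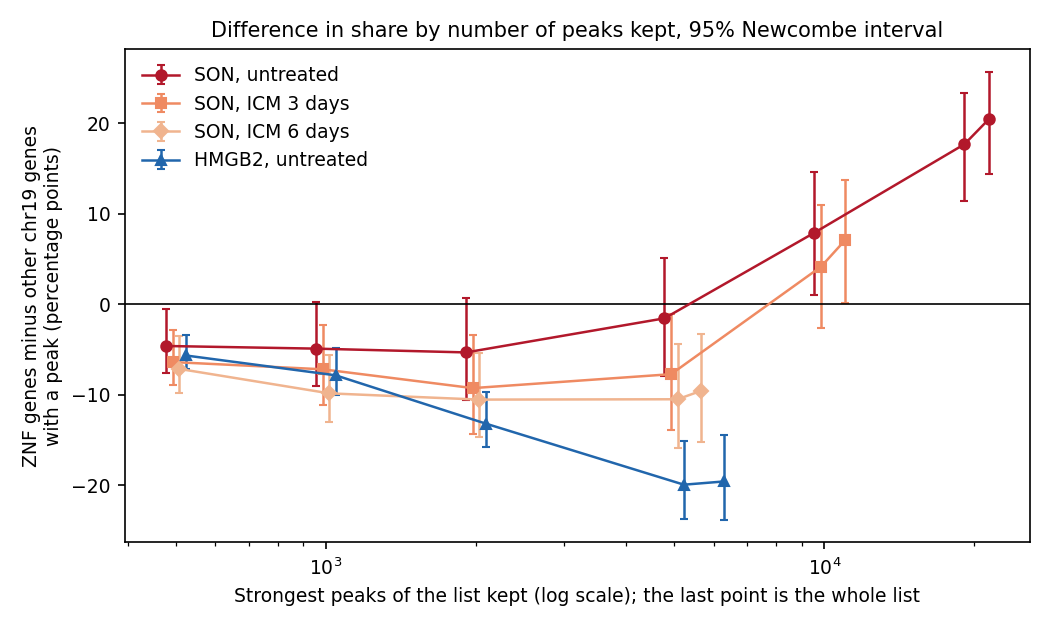
Difference in the share of genes with a peak, ZNF genes minus other chromosome 19 genes (percentage points, vertical axis), against the number of strongest peaks kept from each list (log axis; points shifted slightly sideways so that they do not cover each other), with 95% Newcombe intervals. The untreated SON line crosses 0 between 5000 and 10000 peaks and ends at 20.4 points, while the 6-day SON and HMGB2 lines stay below 0.

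The SON lists were nested at ZNF genes and at other genes alike. All 59 members with a 6-day SON peak also had an untreated and a 3-day peak, and of the 404 other chromosome 19 genes with a 6-day peak, 404 had an untreated and 399 a 3-day peak. Of the 198 members with an untreated peak, 69.7% also had one at 3 days and 29.8% one at 6 days, against 81.4% and 55.8% of the other chromosome 19 genes with an untreated peak. The most common pattern in members was a SON peak in untreated cells and at 3 days only, at 74 genes (30.1%, against 9.05% of other chromosome 19 genes). Another 58 members (23.6%, against 8.38%) had an untreated SON peak only, and 41 (16.7%, against 13.4%) had a peak in all 3 SON lists but not in the HMGB2 list. The 45 members without any peak (18.3%) compare with 37.7% of other genes.

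Peaks in all 4 lists were found at 18 members (7.32%), against 19.7% of other chromosome 19 genes. They were ZNF414, ZNF627, ZNF526, ZNF575, ZNF576, ZNF224, ZNF225, ZNF628, ZNF524, ZNF865, ZNF460, ZNF548, ZNF551, ZNF544, ZNF8, ZNF497, ZNF837 and ZNF584. ZNF714 was the 1 member with a peak at 3 days only (0.407%, against 0.581% of other chromosome 19 genes). The peak lay at its start with a −log10 p of 7.10.

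Peak by peak, 62.6% of the 211 untreated SON peaks at members overlapped a 3-day peak, 25.6% a 6-day peak and 8.53% an HMGB2 peak. For the other 833 untreated peaks of the chromosome these shares were 62.5%, 36.0% and 32.5%. Strength in the untreated list ordered the overlap: of the 68 member peaks in the strongest of 5 classes of the list, all 68 overlapped a 3-day peak and 70.6% a 6-day peak, against 96.2% and 74.3% elsewhere on the chromosome. In the next class, 56.9% and 7.84% of 51 member peaks did so, against 73.1% and 21.8%. HMGB2 peaks overlapped 19.1% of the member peaks of the strongest class, against 47.6% elsewhere. At the top of the untreated list the shares with a later SON peak thus lay near those of other peaks, and the share with an HMGB2 peak did not.

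**Figure D4:**
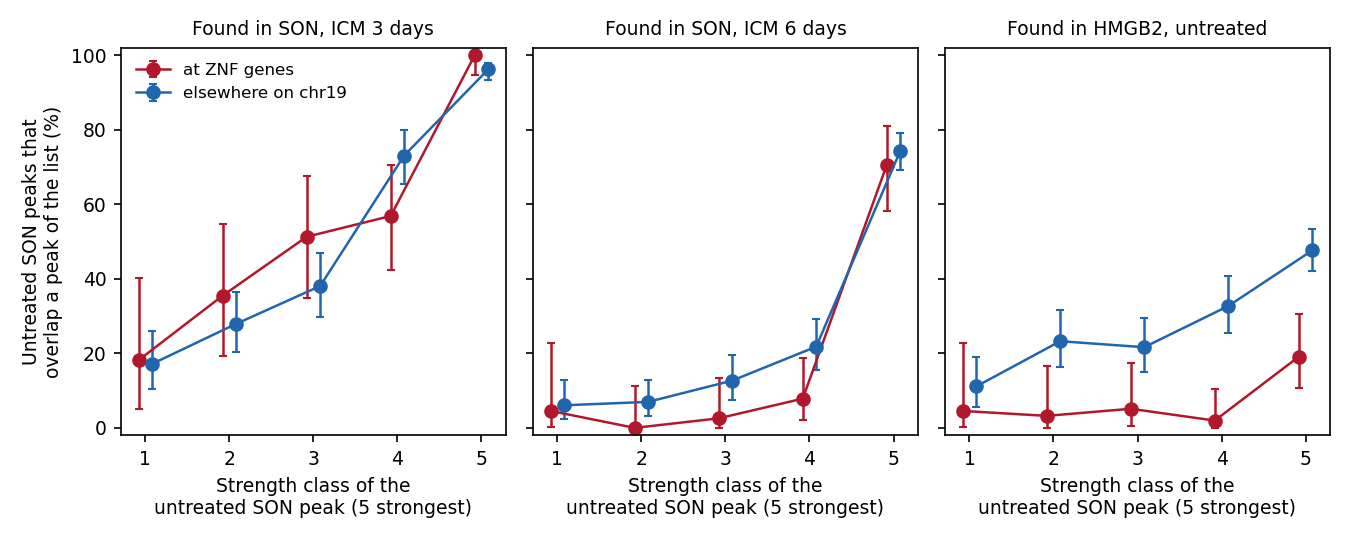
Share of untreated SON peaks (%, vertical axis) that overlap a peak of the 3-day SON, 6-day SON or HMGB2 list (panels), by strength class of the untreated peak (horizontal axis, 5 is strongest), at ZNF genes and elsewhere on chromosome 19, with 95% exact binomial intervals. In the strongest class, 70.6% of the peaks at ZNF genes and 74.3% of the others overlap a 6-day peak, and 19.1% and 47.6% an HMGB2 peak.

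The members lay in 20 stretches when neighbours up to 500 kb apart were joined, and 10 stretches of 5 or more members held 232 of them. At chr19:57191500-58489533, from ZNF264 to ZNF446, an untreated SON peak was found at 42 of 43 members, and a 6-day peak at 16. From ZNF565 to ZNF573, chr19:36182060-37779586, 24 of 26 members had an untreated peak and 9 a 6-day peak, but none had an HMGB2 peak. Of the 4 other genes inside it, 3 had an untreated SON peak and 0 an HMGB2 peak, so that absence was shared. From ZNF628 to ZNF835, chr19:55476617-56671757, 9 of 16 members had a 6-day SON peak and 6 an HMGB2 peak, which were the highest shares among the 10 stretches in those lists.

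Other stretches held few members with a peak at 6 days. From ZNF101 to ZNF254, chr19:19668153-24129968, 26 of 37 members had an untreated SON peak, 14 a 3-day peak and 1 a 6-day peak. From ZNF653 to ZNF791, chr19:11483429-12633834, the counts were 19, 8 and 1 of 25 members, and from ZNF175 to ZNF331, chr19:51571283-53580269, they were 30, 22 and 3 of 39. Of the other genes inside these stretches, 0 of 2, 2 of 4 and 1 of 16 had a 6-day peak, so from ZNF175 to ZNF331 the few 6-day peaks were shared by members and other genes. From ZNF264 to ZNF446, 11 of 13 other genes had an untreated peak and 6 a 6-day peak, and from ZNF628 to ZNF835, 7 of 26 had a 6-day peak. The median −log10 p of the best untreated peak was 8.58, 8.44 and 11.4 in the 3 stretches, against 37.1 from ZNF628 to ZNF835 and 21.4 from ZNF565 to ZNF573. The stretch from ZNF414 to ZNF846 had a median of 10.4 and a 6-day peak at 3 of 13 members, so a low untreated median did not always come with few 6-day peaks.

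**Figure D5:**
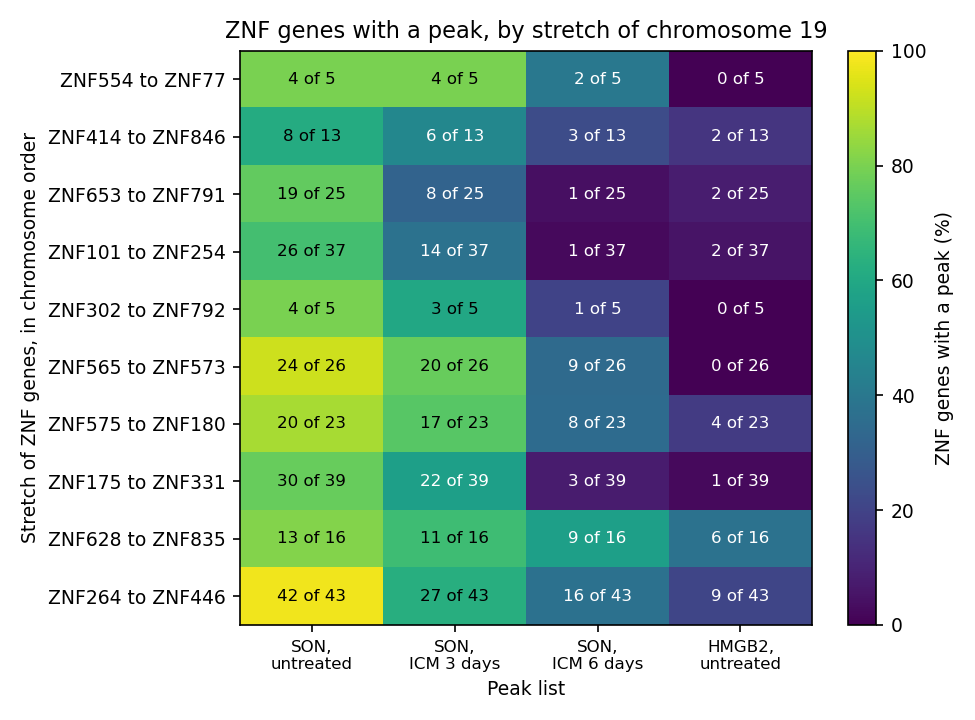
Number and share (%, colour) of ZNF genes with a peak in each of the 4 lists (columns) for the 10 stretches of 5 or more ZNF genes, in chromosome order (rows). In the 6-day SON column, 1 of 37 genes from ZNF101 to ZNF254 has a peak, and 9 of 16 from ZNF628 to ZNF835.

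ZNF576 had the strongest peak of all members in each list. Its −log10 p was 203 (rank 35) for SON in untreated cells, 295 (rank 17) at 3 days, 70.4 (rank 39) at 6 days and 93.0 (rank 22) for HMGB2. The untreated peak, chr19:43595893-43596711, covers the stretch printed above and reaches an end of IRGQ. In the 3-day list the 2 replicates gave 295 and 778, and in the 6-day list 70.4 and 120.3. ZNF576 was high in all 4 lists, and its replicates differed widely in value at 3 and 6 days.

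ZNF444, a SCAN-domain zinc finger gene, had 148, 89.9 and 40.8 in the 3 SON lists and no HMGB2 peak. Its peak, chr19:56140545-56141263, lay at a listed start inside the gene and not at the outermost start. ZNF473, whose protein takes part in histone pre-mRNA processing with the U7 snRNP, had 99.97, 138 and 41.0 in the SON lists at chr19:50025176-50026111, a peak that also reaches an end of VRK3, and no HMGB2 peak. These genes stood next to ZNF576 in the SON lists but not in the HMGB2 list.

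ZNF224 and ZNF225 share 1 strong peak, chr19:44112991-44113543, with 73.1, 27.7 and 16.1 in the SON lists and 7.75 for HMGB2. It lies at a listed start of ZNF225 and in the flank of ZNF224, a KRAB gene whose own start had a peak of 12.8 in untreated cells only. So the pair counts as 2 members with a peak on 1 site.

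Other members named by the same rule carried SON peaks in all 3 SON lists and no HMGB2 peak, at a start where strand was known. ZNF471, whose strand was not available, had 71.2, 59.5 and 17.9. ZNF787 had 65.4, 50.02 and 18.5, and ZNF667 40.7, 54.9 and 11.3. ZNF175 had a peak at its start (36.2, 42.6 and 20.5) and a second in the flank beyond its other end (59.4, 42.5 and 20.0). ZNF565 had 57.7, 37.5 and 10.4 at a position that is also an end of ZNF146. At 5 of these members the values were lower at 6 days than in untreated cells, but values of different lists are not on 1 scale.

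ZNF331, an imprinted gene, had 3 untreated SON peaks, each at a listed start, with 51.7, 8.78 and 18. Of these, 2 were found again at 3 days (17.3 and 10.3) and 1 at 6 days (10.8). ZNF653, which encodes a transcriptional repressor, also had 3 untreated peaks, the strongest 15.8, with 12.2 at 3 days, none at 6 days and an HMGB2 peak of 5.74 in its flank. ZNF790 had 3 untreated peaks, the strongest 20.9, and 9.28 at 3 days. The members with most SON peaks were thus not those with the strongest.

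HMGB2 had its strongest member peaks, after ZNF576, at ZNF548 (17.3), ZNF526 (17.2), ZNF584 (16.3) and ZNF628 (14.8). ZNF548 had 47.3, 22.2 and 9.84 in the SON lists, and ZNF584 had 35.5, 13.9 and 9.46, all at a start. ZNF526 had start peaks of 46.3, 34.0 and 8.78 and stronger SON peaks in its flank, inside DEDD2, of 54.1, 45.6 and 13.6. ZNF628 had 2 SON peaks in each SON list, of which those at the start had 38.8, 10.1 and 5.07. At 6 days its second SON peak was the stronger, with 6.91. HMGB2 was at the other end of ZNF628, at an end of NAT14. HMGB2 and SON thus met at the start in 3 of these 4 members.

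ZNF837 had 2 SON peaks in each SON list, of which those at its start had 36.9, 17.9 and 14.8. At 3 days its second peak was the stronger, with 27.9, and was also the best 3-day peak of ZNF497. The HMGB2 peak of ZNF837, with 9.47, lay in the flank, at an end of ZNF497. ZNF414 had 20.2, 7.18 and 7.98 in the SON lists and 7.08 for HMGB2, all at its start. An HMGB2 peak without any SON peak was found at 2 members (0.813%), against 1.66% of other chromosome 19 genes. They were ZNF579 (7.85, at its start) and ZNF580 (5.97, in its flank, inside CCDC106). The ZNF580 peak is also the HMGB2 peak of ZNF581, whose span contains ZNF580 and which had an untreated SON peak of 16.9. Of the 22 distinct HMGB2 peaks at members, 17 overlapped an untreated SON peak. That is 77.3% (54.6 to 92.2%), against 64.5% of the other HMGB2 peaks of the chromosome, which lies inside the interval.

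No peak in any list was found at 45 members, of which the longest were ZNF536 (488 kb), a gene known for repressing neuronal differentiation, ZNF676 (81.2 kb) and ZNF730 (72.0 kb). ZNF536 lies alone, outside the stretches. ZNF676 and ZNF730 lie in the stretch from ZNF101 to ZNF254.

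Promoters of 300 bases around the outermost listed start were read for the 216 members and 969 other chromosome 19 genes with an entry in the RefSeq table. The median number of CpG was 20 in members and 21 in other genes, and the median GC content 60% and 64.0%. Members without any peak had a median of 17 CpG, those with an untreated SON peak 20.5 and those with a peak in all 3 SON lists 23, while other genes without any peak had 9 and those with an untreated SON peak 26. ZNF genes without a peak were thus nearer to ZNF genes with one in CpG number than was the case among other genes.

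In promoters with 14 CpG or fewer, an untreated SON peak was found at 43 of 55 members (78.2%), against 35.6% of other chromosome 19 genes. In the class from 28 to 56 CpG the shares were 90.2% and 83.5%. For SON at 6 days the shares in those classes were 9.09% against 16.9%, and 41.5% against 52.0%. For HMGB2 they were 5.45% against 16.1%, and 17.1% against 46.4%. The untreated excess of members was therefore widest at promoters with few CpG.

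The ETS core CCGGAAG was found, on either strand, in 97 of 216 member promoters (44.9%), against 13.0% of other chromosome 19 promoters and 10.6% of all promoters of the table. It was as common in the 35 members without a peak (15, 42.9%). The NRF1 core GCGCANGCG was found in 14.4% of member promoters, in 15 of the 53 with a peak in all 3 SON lists (28.3%) and in 3 of the 35 without a peak (8.57%), against 12.8% of other chromosome 19 promoters and 8.07% of all. The 2 parts of the CTCF core, CCACNAGG and AGGGGGC, were found in 3.70% and 18.5% of member promoters, against 6.30% and 20.2% of other chromosome 19 promoters and 4.99% and 13.9% of all. The YY1 core AAGATGGCG was found in 3.70%, against 3.92% and 1.82%, and the SP core GGGGCGGGG in 24.1%, against 25.2% and 15.9%. The SP core and the second CTCF part can overlap. The ETS core was more frequent in member promoters than in other promoters of the chromosome, and the NRF1 core was found in a larger share of members with a peak in all 3 SON lists than of members without a peak. Among other chromosome 19 genes the NRF1 core was likewise in 18.5% of promoters with an untreated SON peak and 2.74% of those without any peak. These are matches of letters, not sites.

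The corepressor genes through which KRAB zinc finger proteins act, and genes that keep silent chromatin, were read from a list of 23 genes. A peak was found at 21 of them in untreated SON, 16 at 3 days, 5 at 6 days and 6 for HMGB2. These are 91.3%, 69.6%, 21.7% and 26.1%, against 57.1%, 41.0%, 21.5% and 23.3% of all protein-coding genes, so the last 2 were near the background. The intervals of the first 2 were 72.0 to 98.9% and 47.1 to 86.8%. The 23 genes were also longer, with a median span of 38.5 kb against 24.2 kb for all genes, and the part of length was not tested. TRIM28, the KRAB corepressor on chromosome 19, had no peak in any list, and neither had PPHLN1 of the HUSH complex. SETDB1, the methyltransferase, had 24.6 and 16.3 in untreated cells and at 3 days and no later peak. CBX3 and CBX5, readers of H3K9 methylation, had peaks in all 4 lists, with 69.6, 31.7, 12.6 and 10.1 for CBX3 and 47.2, 80.3, 26.9 and 22.3 for CBX5. CBX1 and MPHOSPH8 did not. CBX1 had 28.9 and 15.4 for SON in untreated cells and at 3 days only, and MPHOSPH8 5.87 in untreated cells only. ZNF274, a member whose protein recruits SETDB1 to the 3′ ends of other ZNF genes, had an untreated SON peak of 8.12 and no other. The other zinc finger families of chromosome 19, 17 genes with symbols such as ZSCAN or ZIM, had 13, 11, 4 and 2 genes with a peak in the 4 lists, and the shares of other chromosome 19 genes lay inside the intervals of all 4 (50.1 to 93.2%, 38.3 to 85.8%, 6.81 to 49.9% and 1.46 to 36.4%).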

How the data were processed

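Peak lists of 4 samples, 1 per group by title and treatment label, were analysed. Per the submitters' processing notes, bcl2fastq 2.17, Bowtie2, deepTools and MACS2 were used on hg38, with no roles given. The treatment of reads that map to several places, the peak caller's control and the depth are not given in the sources used here. In the deposited SON lists, per the file columns, the −log10 p of a peak is the lower of the values of 2 replicates, and the authors also gave the −log10 of the global IDR (largest IDR 0.431, 0.447 and 0.630). For HMGB2 the authors deposited −log10 p, −log10 q (largest q 0.0287) and a fold enrichment ratio, and the fold was not used for any comparison. These values rank peaks within a list only.

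A gene had a peak when at least 1 bp overlapped its window. RefSeq tables (GRCh38.p14) gave gene spans, strand, starts and promoters. Named members were the 5 strongest per list, the 5 highest by mean percentile among those in all 4 lists, the 3 with most peaks in the untreated SON and the HMGB2 list, up to 5 with a 6-day and no untreated SON peak (none was found), up to 5 with HMGB2 and no SON peak, the 3 longest without a peak and up to 5 whose only untreated peaks lay away from both ends. Names outside this rule (the 18 genes in all 4 lists, ZNF714, ZNF274 and neighbours) were chosen after their values were seen. Members, lists and rules were chosen with earlier results of these data known. Stretches, strength and CpG classes and the numbers of strongest peaks were chosen after seeing the data. Planned protein features were not run here. Window counts were tested on simulated data (209 genes, all planted peaks recovered). Scripts ran under Python 3.11.15 with scipy 1.17.1, pandas 2.3.3, numpy 2.4.6 and matplotlib 3.10.9. Alternatives are given in the closing section.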

Additional observations from a re-analysis of the deposited data

How the results depend on the processing

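The difference between ZNF genes and other chromosome 19 genes kept its sign under every alternative tried for HMGB2 and for SON at 6 days, but not for SON in untreated cells and at 3 days. In untreated cells it reversed with lists of equal length (-0.767 points) and with the strongest 500, 1000, 2000 and 5000 peaks (-4.61, -4.90, -5.32 and -1.56), and it was 28.7 points in the gene span only, 10.9 with the stronger 50% of peaks and 7.90 with the strongest 10000. At 3 days it reversed with the stronger 50% (-5.23), an IDR of at most 0.05 (-7.60), equal length (-5.23) and the strongest 500, 1000, 2000 and 5000 peaks (-6.38, -7.18, -9.26 and -7.72), and was 13.9 in the span only. Its interval, which excluded 0 with 5 kb flanks, included 0 with 10 kb flanks (4.8, -2.02 to 11.3) and at gene ends (5.26, -1.37 to 12.1). At 6 days it was -3.22 in the span only, with an interval (-8.27 to 2.61) that included 0. For HMGB2 it was -10.9 in the span only, -14.2 at gene ends and -5.65, -7.84 and -13.2 with the strongest 500, 1000 and 2000 peaks. The settings that keep a number of strongest peaks, other than equal length, were chosen after seeing the data. Keeping fewer peaks lowers every share by construction.

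The share of ZNF genes with an untreated SON peak was 65.4% at gene ends, 60.6% with the stronger 50%, 65.4% at an IDR of at most 0.05, which rests on replicate columns that are mostly identical, and 37.0% at equal length. At 3 days these were 42.7%, 36.2%, 30.5% and 36.2%. At 6 days they were 15.4%, 12.6% and 5.69%, and for HMGB2 the share was 5.69% in the span only, 7.32% at ends and 3.66% with the stronger 50%. The share with a peak in all 3 SON lists was 15.4% at ends, 12.2% with the stronger 50% and 5.28% at that IDR. The median percentile of the best peak at that IDR was 79.1, 84.2 and 91.6 in the 3 SON lists. Of the differences, 36 moved by less than their counting interval, 10 by more and 12 reversed. Of the shares, 26 moved by less and 14 by more. No paired analysis was possible because the labels carry no replicate numbers and each group has 1 list. With 1 list per group no list could be left out. With the −log10 p of the first or the second replicate alone, the median percentile of the best peak was 70.9 or 69.0 in untreated cells, 64.3 or 68.9 at 3 days and 63.0 or 58.4 at 6 days.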
